A study of Mus musculus with 12 samples.

Results

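The genes described here are 10 receptors for acetylcholine, chosen by name from the 37310 genes of the counts: the muscarinic receptors Chrm1, Chrm2, Chrm3, Chrm4 and Chrm5 and the nicotinic subunits Chrna3, Chrna4, Chrna5, Chrna7 and Chrnb2. They were measured in 12 RNA-seq libraries from ventral hippocampus (vHPC) of C57BL/6 mice, in 4 groups of 3: TRAP of WT, TRAP of KO, input of WT and input of KO. All mice carried the Rosa26 eGFP-L10a allele, in which Cre switches on a GFP-tagged protein of the large ribosomal subunit, and all received retrograde HSV-hEf1α-Cre in nucleus accumbens (NAc), 3 weeks before tissue collection. KO mice were also FosB fl/fl, so that the same Cre deletes FosB, and WT mice lacked the floxed allele. TRAP (translating ribosome affinity purification) pulls down tagged ribosomes with their mRNA, and input is the RNA of the whole punch, which includes neurons without Cre, glia and vessels. Each library came from a pool of 3 mice by the labels, and of 3 to 4 by the methods, and TRAP and input were both made from each pool. The pools are numbered 1 to 3 in WT and 2 to 4 in KO. Age at collection was not given in the sources used here. Retrograde Cre acts in every neuron whose axon reaches the injected site, in vHPC and elsewhere, so by design the deletion is aimed at those neurons and not at the rest of the punch.

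Acetylcholine reaches hippocampus mainly from the medial septum and diagonal band. Muscarinic receptors are G protein-coupled: those encoded by Chrm1, Chrm3 and Chrm5 act through Gq and phospholipase C, which closes M-type potassium channels and makes pyramidal neurons more excitable, and those encoded by Chrm2 and Chrm4 act through Gi and Go, which lowers transmitter release. Nicotinic receptors are ion channels made of several subunits. Chrna7 makes a channel of its own with high calcium flow, Chrna4 with Chrnb2 makes the main high-affinity channel of brain, Chrna5 joins such channels without binding acetylcholine itself, and Chrna3 is best known from medial habenula and autonomic ganglia.

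Libraries held 3416030 to 5614089 reads on genes, and 3 reads, taken here as the floor of detection, stood at 0.534 to 0.878 CPM (a gene's share of the reads on genes in its library). Floors and counting intervals cover counting error only. Levels below are CPM scaled by TMM, which corrects for differences in composition between libraries. Fosb, the targeted gene, ranged in TRAP from 32.0 to 45.1 CPM in WT and 18.8 to 29.3 CPM in KO, and in input from 22.2 to 30.2 CPM in WT and 14.8 to 17.1 CPM in KO, so that KO was below WT in both kinds of library, and the counts do not show which exons the reads came from. The log2 ratio of KO to WT for Fosb was -0.76 in TRAP (adjusted p = 0.337 by edgeR) and -0.68 in input (adjusted p = 1.00), and neither passed the test. Fosb was thus about as much lower in the whole punch as in TRAP, with a difference between the ratios of -0.08 (95% interval -0.71 to 0.54), although the deletion was aimed at the tagged neurons. All 5 astrocyte, 5 oligodendrocyte and 4 microglia markers were lower in TRAP than input, 3 of 4 markers of neurons and 3 of 4 of glutamate neurons were higher, and so were 2 of the 3 CA1 markers tested. Of 8 markers of GABA neurons, 7 were lower. Of all genes tested between TRAP and input, 19.6% were higher and 22.5% lower. Of the markers that were lower, all 4 of microglia, 2 of oligodendrocytes and 1 of GABA neurons did not pass the filter on low counts in TRAP and entered this test through input, where they are high. Chat and Slc5a7, which mark cholinergic neurons, had at most 5 counts in any library. One library stands apart: KO TRAP 2 held 610 CPM of GABA neuron genes, against 161 and 170 CPM in the other KO TRAP libraries and 263 to 392 CPM in WT TRAP, and 99 counts of Tac2, a peptide gene with 0 counts in WT TRAP. WT input 1 had counts on fewer genes than the other input libraries, 15678 against 17255 to 18090.

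Promoter windows of 9 of the 10 genes are in RefSeq on build GRCm38.p6, which differs from mm9, the build of the counts. A window holds 300 bases around the annotated start, and Chrna5 has 2 windows. The windows of Chrm2, Chrm5 and Chrna4 are shown because they are the members under an unadjusted p of 0.05 in a comparison of genotypes, Chrm2 in TRAP and Chrm5 and Chrna4 in input. They are read 5′ to 3′ on the strand of the gene, and capitals mark CpG dinucleotides. The Chrm2 window is chr6:36387834-36388133 on the plus strand, that of Chrm5 chr2:112480768-112481067 on the minus strand and that of Chrna4 chr2:181039128-181039427 on the minus strand.
Chrm2: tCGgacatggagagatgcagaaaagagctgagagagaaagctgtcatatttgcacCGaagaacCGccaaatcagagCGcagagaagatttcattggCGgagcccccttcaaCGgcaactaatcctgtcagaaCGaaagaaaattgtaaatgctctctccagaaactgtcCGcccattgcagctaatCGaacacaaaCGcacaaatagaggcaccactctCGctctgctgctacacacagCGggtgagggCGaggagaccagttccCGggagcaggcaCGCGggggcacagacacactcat
Chrm5: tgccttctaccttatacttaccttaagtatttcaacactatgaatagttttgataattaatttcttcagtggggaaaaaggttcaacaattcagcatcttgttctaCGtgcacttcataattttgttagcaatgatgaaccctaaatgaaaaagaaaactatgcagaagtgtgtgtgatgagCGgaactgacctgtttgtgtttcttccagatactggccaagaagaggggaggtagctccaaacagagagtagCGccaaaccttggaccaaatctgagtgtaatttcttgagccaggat
Chrna4: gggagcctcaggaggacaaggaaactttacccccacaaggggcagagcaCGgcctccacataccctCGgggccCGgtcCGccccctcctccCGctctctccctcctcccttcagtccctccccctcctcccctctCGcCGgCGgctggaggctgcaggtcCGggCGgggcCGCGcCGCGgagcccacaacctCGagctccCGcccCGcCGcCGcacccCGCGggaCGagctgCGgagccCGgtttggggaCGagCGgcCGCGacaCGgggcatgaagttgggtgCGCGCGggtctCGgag
The Chrna4 window holds 33 CpG, the Chrm2 window 16 and the Chrm5 window 3, where the median over all windows of this length is 7. Across the other members with a window, CpG counts were 11 in Chrm3, 30 in Chrm4, 18 in Chrna3, 5 and 25 in the windows of Chrna5, 35 in Chrna7 and 12 in Chrnb2. FosB belongs to the AP-1 family of transcription factors, and the windows were searched on both strands for the AP-1 letters TGANTCA and the cAMP response letters TGACGTCA, which do not contain each other. Neither was found in any of the 10 member windows, and of all 32851 windows 7.81% held TGANTCA and 1.79% held TGACGTCA. This covers only these letters in these windows.

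To compare genes with each other, counts were divided by the length of their exons (RPKM). On this per-length scale Chrm1 had the highest level of the 10 genes in each group, with 20.9 ± 1.89 RPKM in TRAP and 17.5 ± 1.66 RPKM in input of WT, and 23.7 ± 1.23 RPKM in TRAP and 18.4 ± 0.897 RPKM in input of KO (SD, n = 3). Its range did not overlap that of the next gene in any group. Chrm4 and Chrnb2 followed, in either order, and overlapped each other except in KO TRAP, where Chrm4 was above Chrnb2. Chrm1 made up 57.9% to 73.7% of the summed RPKM of the 5 muscarinic genes in each library, and Chrm4 another 14.2% to 23.1%. Among the 5 nicotinic genes Chrnb2 took 35.8% to 51.2% and Chrna4 and Chrna7 most of the rest, while Chrna5 took 0% to 9.02% and Chrna3 0% to 2.53%. The order of Chrna4 and Chrna7 varied, with Chrna4 just above Chrna7 in WT TRAP, Chrna7 above Chrna4 in KO input, and overlapping levels in the other groups. Chrm2, Chrna5 and Chrna3 were the lowest 3 in TRAP of both genotypes, at 0.420 RPKM or less. The annotation used for counting gives Chrm3 and Chrm5 a single, mostly coding exon, with 9.34% and 8.59% of noncoding bases against 48.1% to 78.0% for the other members, so reads from any untranslated sequence outside that exon were not counted, and the levels per length of these 2 genes carry that limit.

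**Figure D1:**
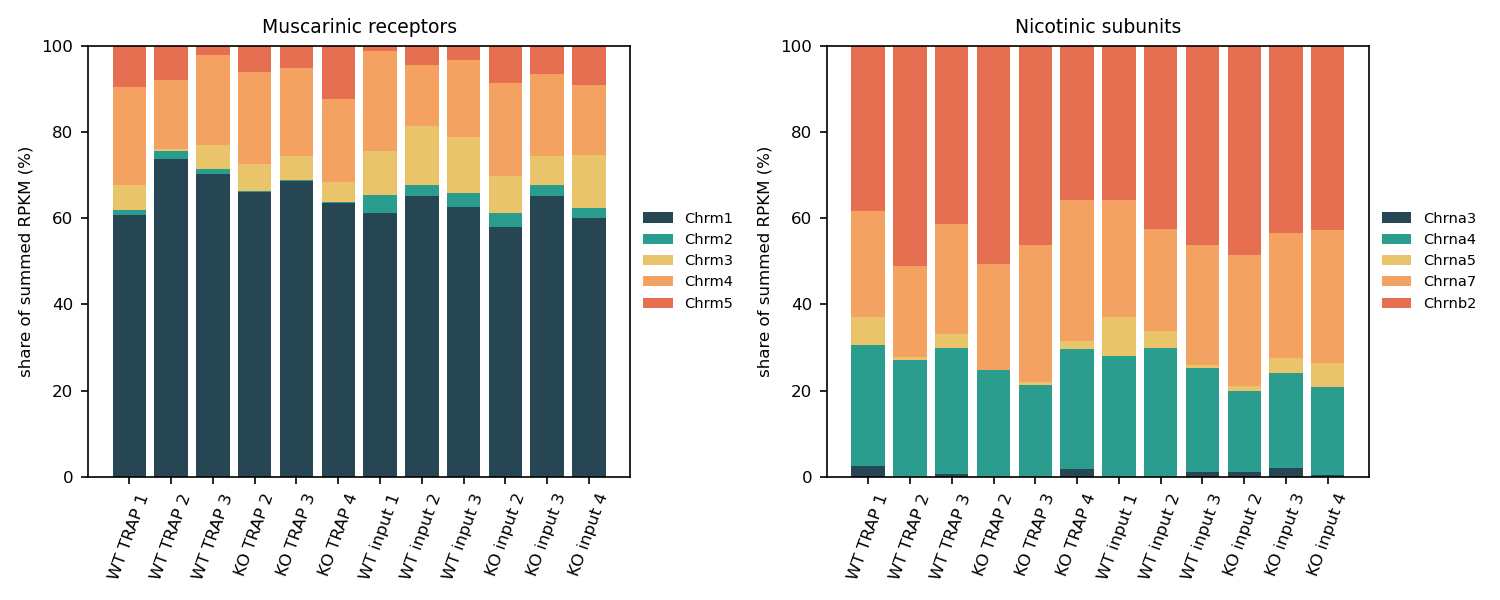
Share of the summed RPKM (y axis, %) taken by each of the 5 muscarinic genes (left) and the 5 nicotinic genes (right) in each of the 12 libraries (x axis). Chrm1 takes 57.9% to 73.7% of the muscarinic sum in every library, and Chrnb2 35.8% to 51.2% of the nicotinic sum.

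**Figure D2:**
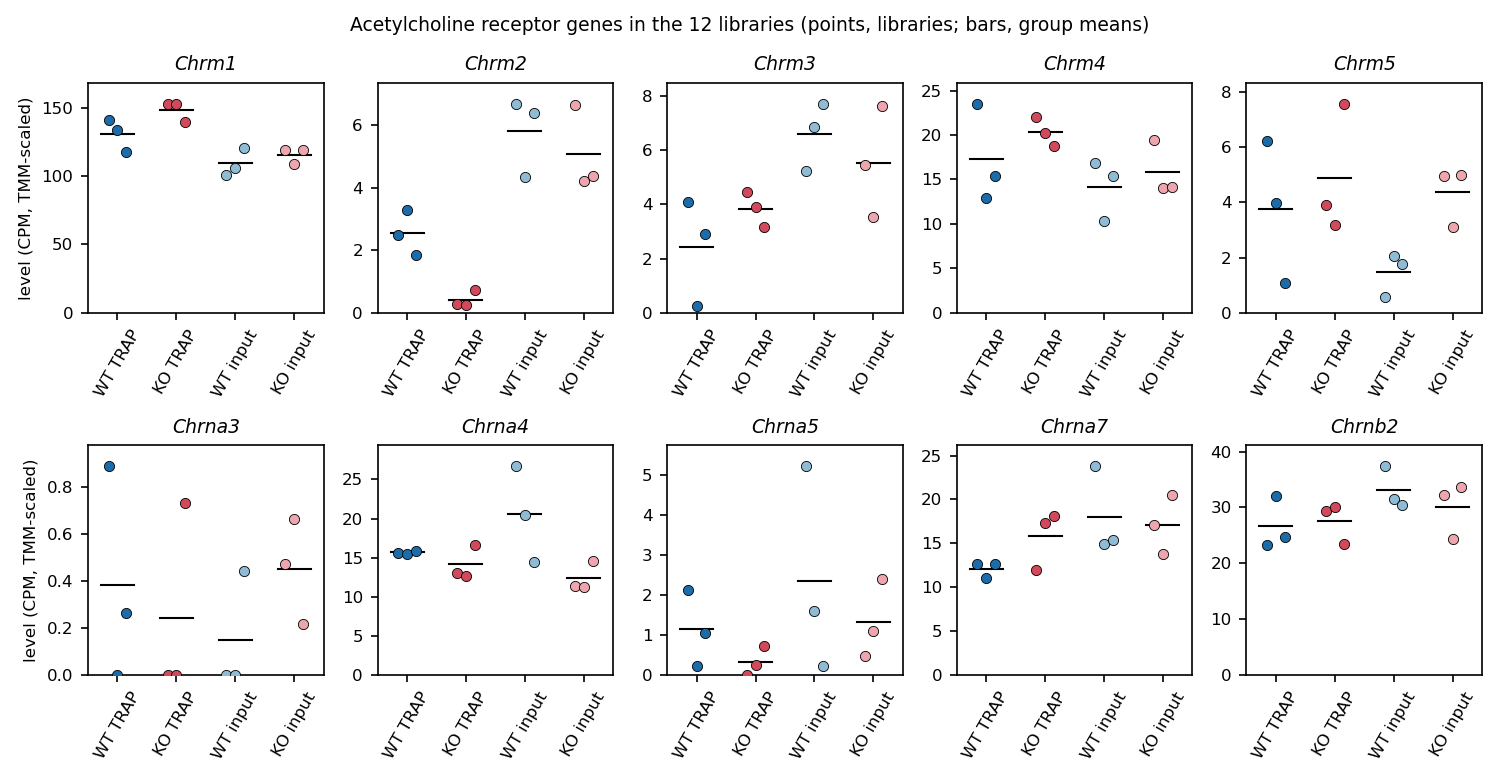
Level of each gene (y axis, CPM after TMM scaling, from 0, with a scale of its own in each panel) in the 4 groups (x axis); points are libraries and bars group means. Chrm2 is lowest in the 3 KO TRAP libraries, at 0.244 to 0.732 CPM, below all others, and Chrm5 is lower in the 3 WT input libraries than in the 3 KO input libraries.

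TRAP was first compared with input, over both genotypes together, to show which of these receptors are carried by NAc-projecting neurons relative to whole tissue. Of the 10 genes, 8 had enough reads to be tested, and Chrna3 and Chrna5 did not pass the filter. Chrm1 was higher in TRAP and Chrm2 and Chrm3 were lower, so that 3 of 8 passed the test, where 42.2% of all 13214 genes tested did. By direction this is 1 of 8 higher, against 19.6% of all genes, and 2 of 8 lower, against 22.5%. These shares are near those of all genes. The median log2 ratio of TRAP to input was -0.16 over the 8 genes and -0.01 over all genes. In bulk RNA, fewer cells of a type and less RNA per cell cannot be told apart.

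Chrm1, the main Gq-coupled muscarinic receptor of pyramidal neurons, had 141, 134 and 118 CPM in TRAP of WT pools 1, 2 and 3 and 101, 106 and 121 CPM in their input. For KO pools 2, 3 and 4 the values were 153, 153 and 140 CPM in TRAP and 119, 109 and 119 CPM in input. TRAP was above input in 5 of 6 pools, the exception being WT pool 3, and the WT groups overlapped while the KO groups did not, as for 20.7% of all genes in this direction in KO. Over both genotypes the level was 1.24-fold higher in TRAP (log2 ratio 0.31, SE 0.08, adjusted p = 0.00289 by edgeR). In KO alone the log2 ratio was 0.35 (SE 0.11, adjusted p = 0.0158), a call that was lost when any 1 of the 3 KO pools was left out, with adjusted p from 0.0578 to 0.0953, and in WT alone it was 0.27 (SE 0.13, adjusted p = 0.157). Of its exon bases 5.25% lie opposite an annotated 7SK copy on the other strand. Chrm1 lies on mm9 at chr19:8738495-8758077.

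Chrm2, a Gi-coupled receptor known in hippocampus mainly from inhibitory interneurons and from axon terminals, went the other way. In WT its TRAP libraries had 2.49, 3.29 and 1.86 CPM against 6.68, 4.35 and 6.39 CPM in input, which are 14, 14 and 7 reads against 23, 19 and 29. In KO its TRAP libraries had 0.279, 0.244 and 0.732 CPM, or 1, 1 and 3 reads, against 6.63, 4.22 and 4.36 CPM in input, or 28, 19 and 20 reads. All 6 TRAP libraries were below all 6 input libraries, a separation that 12.6% of all genes tested showed in this direction. The log2 ratio of TRAP to input was -2.33 (SE 0.44, 95% interval -3.23 to -1.44, adjusted p = 9.07e-05 by edgeR), 5.04-fold lower in TRAP, and TRAP was lower in 6 of 6 pools. Chrm2 entered this test through its input libraries, the group where it is high, since the TRAP libraries alone did not pass the filter, so its call is a description of these reads. With 1 pool left out at a time the log2 ratio ran from -2.68 to -2.11. The GABA neuron genes were lower in TRAP too, with a median log2 ratio of -1.69 over the 8, and their part in the difference of Chrm2 was not tested. Chrm2 lies on mm9 at chr6:36338084-36478414, 2.35% of its exon bases are shared with other annotated genes (Mir490 lies within it, 9330158H04Rik on the other strand), and the strand setting of the counting is not given.

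Chrm4, the other Gi-coupled receptor, did not pass the test. In WT its libraries had 23.5, 12.9 and 15.4 CPM in TRAP and 16.8, 10.3 and 15.4 CPM in input. In KO they had 22.0, 20.2 and 18.8 CPM in TRAP and 19.4, 14.0 and 14.2 CPM in input. The groups overlapped in both genotypes, and the log2 ratio of TRAP to input was 0.33 (95% interval -0.06 to 0.72, adjusted p = 0.167 by edgeR). Chrm4 lies on mm9 at chr2:91762346-91769986, and 0.903% of its exon bases are shared with Mdk on the other strand.

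Chrm3 and Chrm5, which like Chrm1 couple to Gq, had few reads. In WT, Chrm3 had 4.09, 0.235 and 2.92 CPM in TRAP and 5.23, 6.87 and 7.71 CPM in input. In KO it had 4.46, 3.90 and 3.17 CPM in TRAP and 5.45, 3.55 and 7.63 CPM in input. It was lower in TRAP in 5 of 6 pools, with a single read in WT TRAP 2, and the KO groups overlapped. The log2 ratio of -0.97 (SE 0.40) was just past the threshold (adjusted p = 0.0497 by edgeR), and the call was lost without pool 2, 3 or 4 of KO or pool 2 or 3 of WT, with adjusted p from 0.0576 to 0.237. In WT, Chrm5 had 6.22, 3.99 and 1.06 CPM in TRAP and 0.581, 2.06 and 1.76 CPM in input. In KO it had 3.90, 3.17 and 7.57 CPM in TRAP and 4.97, 3.11 and 5.01 CPM in input. TRAP was higher in 4 of 6 pools, and the log2 ratio of 0.75 did not pass the test (95% interval -0.14 to 1.64, adjusted p = 0.171). On mm9 Chrm3 lies at chr13:9876381-9878329 and Chrm5 at chr2:112319229-112320974.

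The nicotinic subunits showed no call between TRAP and input. In WT, Chrnb2 ranged from 23.3 to 32.0 CPM in TRAP and 30.4 to 37.4 CPM in input, and in KO from 23.4 to 30.0 CPM and 24.4 to 33.6 CPM, with a log2 ratio of TRAP to input of -0.22 (95% interval -0.51 to 0.07, adjusted p = 0.217 by edgeR). Its partner Chrna4 had a log2 ratio of -0.10 (-0.48 to 0.28, adjusted p = 0.706). Chrna7 had 71, 47 and 48 reads in TRAP and 82, 65 and 70 reads in input of WT, and 43, 71 and 74 reads in TRAP and 72, 62 and 94 reads in input of KO. As CPM, its WT groups did not overlap, with at most 12.7 CPM in TRAP and at least 14.9 CPM in input, and its KO groups did. Its log2 ratio over both genotypes was -0.34 (-0.72 to 0.05, adjusted p = 0.159). These intervals leave room for changes of up to 0.72 on the log2 scale in the lower direction. Chrna5 had 12, 1 and 4 reads in TRAP and 18, 7 and 1 in input of WT, and 0, 1 and 3 in TRAP and 2, 5 and 11 in input of KO. The summed reads of Chrna5 gave a TRAP level of 59.2% of input in WT (exact counting interval 30.1% to 113%) and 25.1% in KO (6.18% to 76.2%). Without the filter its log2 ratio over both genotypes was -1.43 (adjusted p = 0.154). Chrna3 had 0 to 5 reads in every library, and no fold is given. On mm9 Chrnb2 lies at chr3:89557370-89568554, Chrna4 at chr2:180753085-180778251, Chrna7 at chr7:70243578-70357455, Chrna5 at chr9:54828687-54855586 and Chrna3 next to it at chr9:54859150-54874366, and none of these shares exon bases with another annotated gene.

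In each genotype alone, 0 of the 7 members tested in WT passed the test, where 24.9% of all genes did, although 2 were under an unadjusted p of 0.05, where 36.1% of all genes were, Chrm2 with a log2 ratio of -1.17 and Chrm3 with -1.41. In WT the TRAP and input libraries of Chrm2, Chrm3 and Chrna7 did not overlap, 3 of 7 genes, where 20.8% of all genes separated in this direction. In KO 2 of 8 passed, Chrm1 and Chrm2, where 29.1% of all genes did. The log2 ratio of Chrm2 in KO was -3.50 (SE 0.67, adjusted p = 0.000422 by edgeR), or -3.08 to -4.24 with 1 KO pool left out, the latter without pool 4. The 5 reads of KO TRAP set against 67 of KO input gave 8.43% of the input level (exact counting interval 2.65% to 20.7%). In these comparisons too Chrm2 passed the filter through its input libraries, and not through KO TRAP with its 1 to 3 reads. In WT, Chrm3 also passed the filter through input, where it is high. Its reads in WT were 23, 1 and 11 in TRAP and 18, 30 and 35 in input, and its values there describe these reads. DESeq2 called as many members in each direction as edgeR in all of these comparisons.

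**Figure D3:**
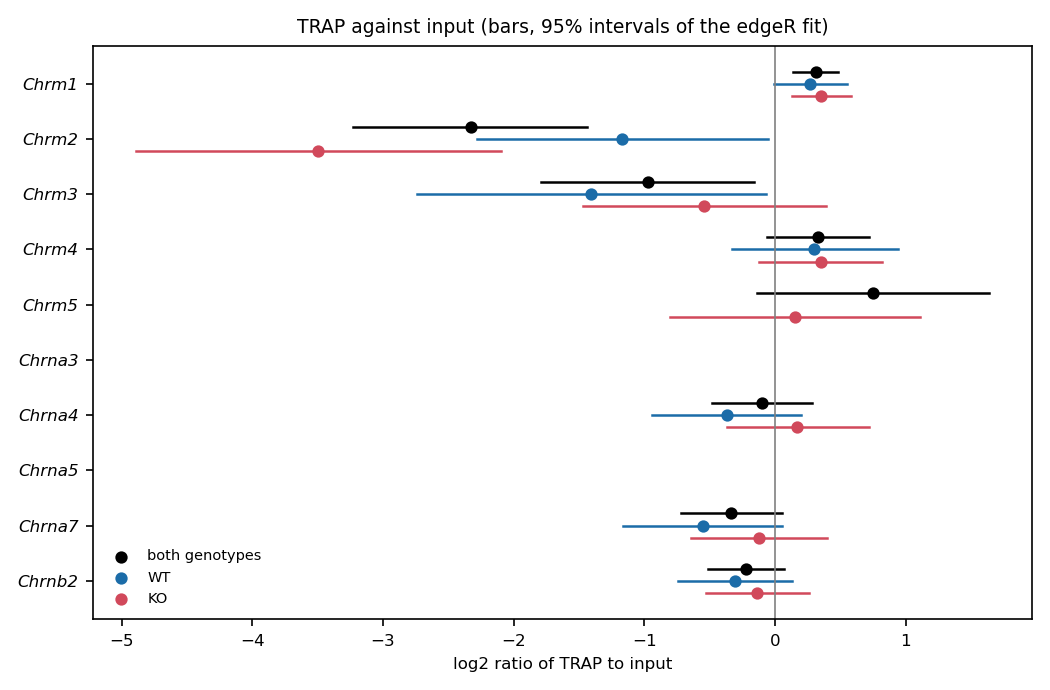
Log2 ratio of TRAP to input (x axis) for each gene tested (y axis), over both genotypes (black), in WT (blue) and in KO (red), with 95% intervals; Chrna3, Chrna5 and, in WT, Chrm5 have no point because they did not pass the filter. Chrm2 lies furthest from 0 over both genotypes, at -2.33, and in KO, at -3.50, and in WT Chrm3 lies furthest, at -1.41, with Chrm2 at -1.17.

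KO was then compared with WT within TRAP, the comparison that asks what loss of FosB does in NAc-projecting neurons. None of the 7 members tested passed, where 0.0682% of all 11727 genes tested did, and none was under an unadjusted p of 0.05, where 6.05% of all genes were. DESeq2 called none either. The median log2 ratio of KO to WT was 0.22 over the 7 genes and 0.00 over all genes. Chrm2, Chrna5 and Chrna3 did not pass the filter and are not in this median. Their mean levels, from few reads, were lower in KO TRAP than in WT TRAP. For Chrm1 the log2 ratio was 0.18 (95% interval -0.05 to 0.41), for Chrnb2 0.05 (-0.38 to 0.48), for Chrm4 0.22 (-0.32 to 0.76), for Chrna4 -0.15 (-0.71 to 0.41) and for Chrna7 0.38 (-0.21 to 0.97). A change of Chrm1 by more than 0.41 on the log2 scale thus lies outside the interval, whereas the log2 ratios of Chrm3 (0.63, SE 0.66) and Chrm5 (0.34, SE 0.57) had large errors. Chrna5, under the filter, had 4 reads in KO TRAP and 17 in WT TRAP, 27.2% of the WT level (exact counting interval 6.67% to 83.5%), with groups that overlapped.

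Chrm2 had too few reads in TRAP for the filter, and here the KO and WT libraries did not overlap. The 3 WT TRAP libraries held 14, 14 and 7 reads (2.49, 3.29 and 1.86 CPM) and the 3 KO TRAP libraries 1, 1 and 3 (0.279, 0.244 and 0.732 CPM), each of the latter at or under the floor of 3 reads. Among the genes that passed the filter, 11.9% had groups that did not overlap. The 5 reads in KO against 35 in WT gave a level of 16.5% of WT (exact counting interval 5.06% to 42.4%). Tested without the filter among 19273 genes, the log2 ratio of KO to WT was -2.52 (SE 1.04, 95% interval -4.56 to -0.47), which did not pass the test (unadjusted p = 0.0160, adjusted p = 0.737 by edgeR). DESeq2 without the filter gave -2.60 (adjusted p = 1.00) and the fit of all 12 libraries -2.51 (adjusted p = 0.381). With 1 pool left out at a time the log2 ratio ran from -3.15 to -2.25 and the adjusted p from 0.594 to 0.945.

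In input the genotypes overlapped for Chrm2, with 23, 19 and 29 reads in WT and 28, 19 and 20 in KO (log2 ratio -0.19, 95% interval -1.07 to 0.69, adjusted p = 1.00 by edgeR). The difference between genotypes in the log2 ratio of TRAP to input was -2.32 for Chrm2 (SE 0.88, 95% interval -4.13 to -0.51, unadjusted p = 0.0141, adjusted p = 1.00). Here too Chrm2 passed the filter through input only. Of all genes 2.71% were under an unadjusted p of 0.05 in that test and 0.00757% passed with adjustment, and the other 7 members were not under an unadjusted p of 0.05. The difference ran from -3.06 to -1.91 when 1 pool at a time was left out.

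The level of GABA neuron genes is given beside Chrm2, since both were lower in TRAP. The 8 GABA neuron genes summed to 392, 297 and 263 CPM in the TRAP libraries of WT and to 610, 170 and 161 CPM in those of KO pools 2, 3 and 4. KO TRAP 2 thus had the highest GABA sum of the 6 TRAP libraries and 1 read of Chrm2. Of the 8 GABA neuron genes 7 were tested between KO and WT in TRAP and none passed, with log2 ratios from -1.35 to 1.43 and a median of -0.11. The lowest was Npy, with 12.7 to 19.8 CPM in KO TRAP against 24.4 to 52.4 CPM in WT TRAP (adjusted p = 0.0618 by edgeR), and the highest was Slc32a1 (adjusted p = 0.826). Between them lay Pvalb at -0.99, Sst at -0.56, Lhx6 at -0.11, Gad1 at 0.39 and Gad2 at 0.89. Without pool 2 of KO, the library that stands apart, the log2 ratio of KO to WT for Chrm2 was -2.32 (unadjusted p = 0.0408, adjusted p = 0.923). The part of Npy-expressing or other interneurons in the reads of Chrm2 was not tested.

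**Figure D4:**
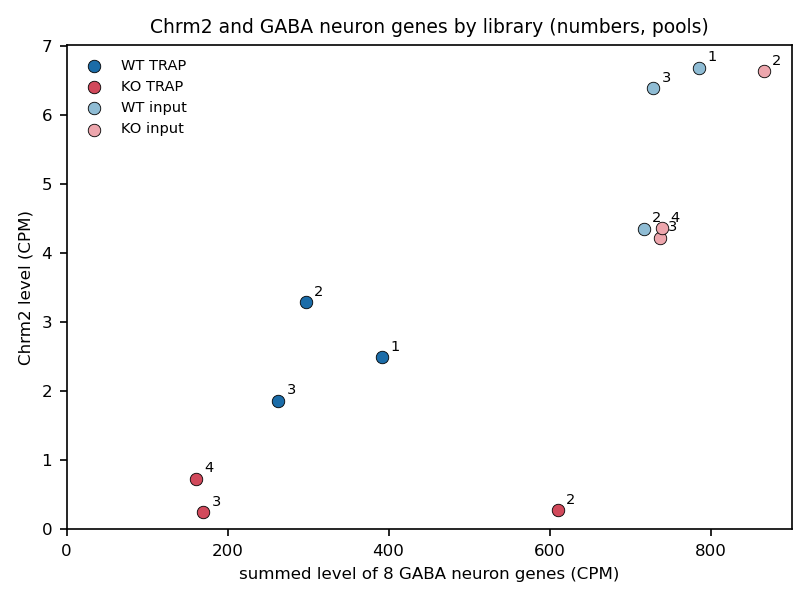
Level of Chrm2 (y axis, CPM) against the summed level of 8 GABA neuron genes (x axis, CPM) in each of the 12 libraries, coloured by group and numbered by pool. KO TRAP 2 lies at 610 CPM of GABA neuron genes and 0.279 CPM of Chrm2, away from the other libraries.

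In input, the whole punch, none of the 8 members tested passed between KO and WT, where 0.0312% of all 12816 genes did, and DESeq2 called none. An unadjusted p under 0.05 was found for 2 members, Chrm5 and Chrna4, where 2.89% of all genes had one. Chrm5 had 0.581, 2.06 and 1.76 CPM in WT input, or 2, 9 and 8 reads, and 4.97, 3.11 and 5.01 CPM in KO input, or 21, 14 and 23 reads. The groups did not overlap, as was the case for 4.20% of all genes in this direction, and the log2 ratio of KO to WT was 1.52 (SE 0.59, unadjusted p = 0.0193, adjusted p = 1.00). Chrm5 passed the filter here through KO input, where it is high. The lowest library was WT input 1, which had counts on the fewest genes among the inputs, and without WT pool 1 the log2 ratio was 1.19. In TRAP the same gene overlapped between genotypes. Chrna4 had 26.7, 20.4 and 14.5 CPM in WT input and 11.4, 11.3 and 14.6 CPM in KO input, which overlap by WT input 3 and KO input 4. Its log2 ratio was -0.71 (SE 0.27, unadjusted p = 0.0158, adjusted p = 1.00), and -0.48 without WT pool 1, whose input library was the highest. In TRAP, Chrna4 had 15.6, 15.5 and 15.9 CPM in WT and 13.1, 12.7 and 16.6 CPM in KO. No marker of the dentate gyrus or choroid plexus passed the test between KO and WT in input. The 3 dentate gyrus markers summed to 52.1 to 95.7 CPM in KO input (median 93.2) and 38.6 to 65.3 CPM in WT input (median 40.8), ranges that overlap, with log2 ratios of 0.64 in Prox1, 1.46 in Dsp and 0.68 in C1ql2. The 3 choroid plexus markers summed to 4.66 to 247 CPM in KO input and 7.26 to 68.8 CPM in WT input, with the lower median in KO (7.58 CPM against 17.4 CPM) and a single KO library at the top. The log2 ratio of Ttr was 1.48 (95% interval -4.37 to 7.34) and that of Kl 1.16 (0.15 to 2.17), and Folr1 was at 0 in WT input. Their part in the values of Chrm5 and Chrna4 was not tested. The other members tested in input had log2 ratios from -0.25 in Chrm3 to 0.16 in Chrm4.

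**Figure D5:**
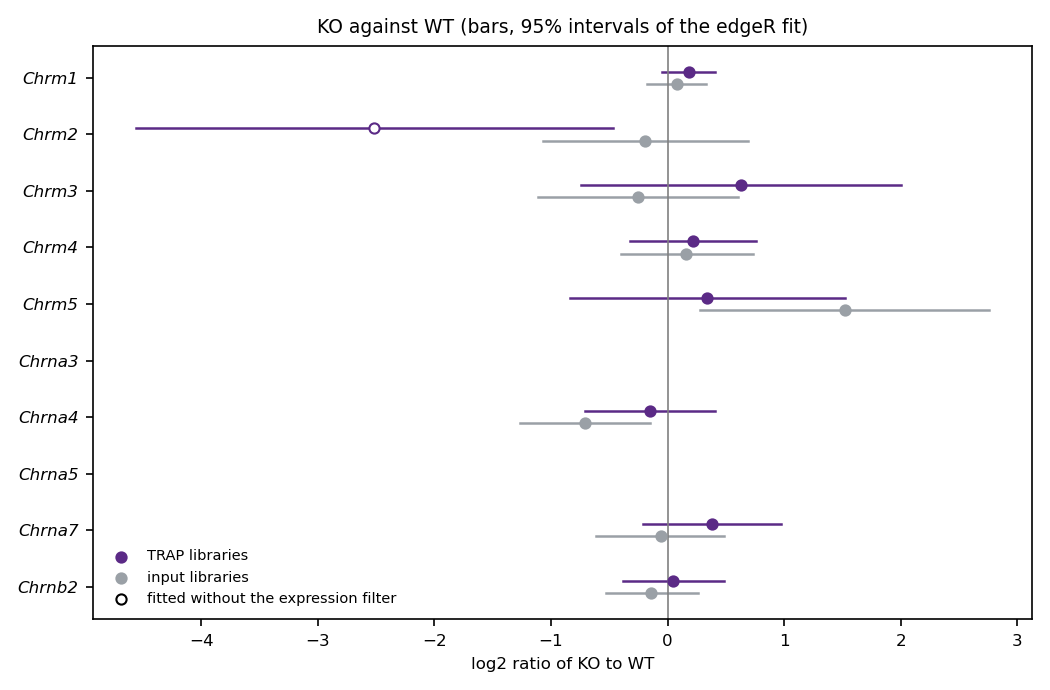
Log2 ratio of KO to WT (x axis) for each gene (y axis) in TRAP (purple) and input (grey), with 95% intervals; the open point is Chrm2 in TRAP, fitted without the filter, and Chrna3 and Chrna5 are not drawn. Chrm2 in TRAP lies at -2.52 and Chrm5 in input at 1.52, and none of the points passed the test over all genes.

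Genes that act with these receptors were taken from lists. The other 11 nicotinic subunits were near absent: none passed the filter in any comparison, their counts ran from 0 to 17 per library, and Chrna9, Chrnd and Chrne had 0 reads in every library. The highest was Chrnb1, at 9 to 17 reads in KO input. These 4 subunits were named after their values were seen. Of 8 genes of acetylcholine synthesis, storage, uptake and breakdown, 7 were matched by symbol and 2 passed the filter. Ache, the enzyme that breaks down acetylcholine, was at 15.4 to 25.2 CPM in TRAP and 15.1 to 22.2 CPM in input (log2 ratio of TRAP to input -0.01, adjusted p = 0.971 by edgeR), and Slc44a1, a choline transporter found in many cell types, was lower in TRAP (-0.90, adjusted p = 0.000114). Chat, the enzyme that makes acetylcholine, had 0 to 5 counts.

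Of 9 genes for assembly or accessory proteins of nicotinic receptors, 7 were tested, 1 was higher in TRAP and 2 were lower, where 19.6% of all genes were higher and 22.5% lower. Ly6h, a membrane-anchored protein that holds back nicotinic receptors, was higher (log2 ratio 0.41, adjusted p = 0.00186 by edgeR, higher in 6 of 6 pools). Lypd6 and Lypd6b, of the same Ly6 family, were lower, at -2.96 (adjusted p = 1.27e-07) and -1.25 (adjusted p = 0.0316), but both had at most 13 reads in a TRAP library, did not pass the filter there and entered the test through input, where they are high. Lypd1 had -0.46 (adjusted p = 0.140). Among 20 genes of G proteins, phospholipases, channels and regulators that muscarinic receptors act through, all were tested, 7 were higher in TRAP and 6 lower, where 19.6% of all genes were higher and 22.5% lower, with a median log2 ratio of -0.09 against -0.01 over all genes. Of the α subunits of Gi, Gnai1 was higher (0.46, adjusted p = 4.22e-06), Gnai2 was lower (-0.53, adjusted p = 2.67e-06) and Gnai3 did not pass (-0.26, adjusted p = 0.227). Plcb3, a phospholipase C, was lower (-2.48, adjusted p = 5.09e-06), and so was Kcnq5, a subunit of M-type potassium channels (-0.86, adjusted p = 2.45e-05). Between KO and WT none of the genes tested on these lists passed, in TRAP or in input.

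The genes most like a member over the 12 libraries were found after each value was centred on the mean of its TRAP or input libraries. These are descriptions over libraries that share depth, composition and genotype, since the values were not centred by genotype, so that a difference between KO and WT also enters r. For Chrm1 they were Unkl (Pearson r = 0.91), Mppe1 (0.90) and Oat (0.88). For Chrnb2 they were Wdr18 (0.89), Eif4e2 (0.88) and Ninj1 (0.88). For Chrm2 they were Shpk (0.93), Igfbp6 (0.92) and Pabpc4 (0.90), out of 13213 genes compared. These r are the highest among that many genes over only 12 libraries, and they were not tested. Mppe1 and Shpk had low mean levels, 2.59 and 2.92 CPM, and Chrm2 itself had 1 to 3 reads in KO TRAP.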

How the data were processed

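RNA was sequenced from TRAP and input of each pool. The authors mapped reads to mm9 with TopHat, used HTSeq-count and the Gencode vM1 genes to count uniquely placed reads, and deposited these raw counts, neither normalized nor filtered. They name DESeq2 for testing. The strand setting is not given in the sources used here. Reads outside genes (20.6% to 27.1% of unique reads) and reads shared by genes (2.11% to 2.56%) were left out. Stretches of 75 bases of the members' exons had no other place in mm9 (minimap2 2.31, up to 2 mismatches).

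Tests were run with edgeR 4.0.16 (R 4.3.3): filterByExpr by group (minimum count 10, minimum total 15), TMM, robust quasi-likelihood, and Benjamini-Hochberg adjustment over all genes tested, with a call at an adjusted p under 0.05. The standard error is the log2 ratio divided by the square root of F. Centred levels are log2(CPM + 0.5). A label without the word input was read as TRAP. Nothing says that pools were independent beyond holding different mice, and p-values measure the spread between 3 pools per group. TRAP and input of a pool come from the same mice, and their deviations from group means correlated at 0.06 to 0.11, whereas KO and WT pools of one number hold different mice (-0.07 to 0.00). Alternatives were RLE, total counts, no filter, DESeq2 1.42.0, a block for the pool, a fit of all 12 libraries, and leaving out each pool. Steps were tested on simulated data. The members and lists were chosen with earlier results of these data known. Named from the lists were up to 4 genes with the smallest p in TRAP against input, Chat and Ache. Gnai3 and the single nicotinic subunits were named after their values were seen. Slc18a3 was not matched by symbol. Fits of members under the filter, without a filter and without single pools or with DESeq2, were added after seeing the data.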

Additional observations from a re-analysis of the deposited data

Results flagged for a closer look

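The ratio of TRAP to input for Chrm2 stood out between genotypes by its unadjusted p only. The log2 ratio was lower in KO than in WT by an estimate of -2.32 (SE 0.88, unadjusted p = 0.0141), which did not pass adjustment over the 13214 genes tested (adjusted p = 1.00 by edgeR). All 3 KO pools and all 3 WT pools had less Chrm2 in TRAP than in input. Chrm2 passed the filter only through its input libraries, and the estimate rests on 5 reads in KO TRAP, 67 in KO input, 35 in WT TRAP and 71 in WT input.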

How the results depend on the processing

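With all pools kept, 259 planned refits of single genes kept their direction and their side of the threshold, and 3 did not. Chrm3 between TRAP and input lost its call with total counts only (log2 ratio -0.94, adjusted p = 0.0573), so that 1 member was called lower in place of 2. With pool number as a replicate block, the ratio of KO to WT in input turned for Chrm2 (0.00) and Chrna7 (0.02), both near 0. TRAP and input are paired by pool, and that block changed no call of a member. Between KO and WT the number pairs different mice, and the block gave 20 genes called in input in place of 4. Over all genes, no filter gave 41 calls between KO and WT in TRAP and DESeq2 18, in place of 8, and in input 19 and 8, and the fit of all 12 libraries 7. The causes were not tested.

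Without single pools, TRAP against input gave 1 to 2 members called lower over both genotypes, 1289 to 3243 genes and 0 to 1 members lower in WT, and 1982 to 3181 genes and 0 members higher in KO, with 1871 and 1289 genes without WT pools 2 and 3 and 1982 without KO pool 4. Chrm3 in WT was called only without pool 1 (-2.22, adjusted p = 0.0387 by edgeR). In that fit Chrm3 had 1 and 11 reads in TRAP and 30 and 35 in input. It passed the filter there through input, where it is high, so this call is a description of these reads. KO against WT gave 5 to 20 genes in TRAP and 1 to 5 in input, with 14 without KO pool 2, 5 without KO pool 3, 20 without WT pool 1 and 19 without WT pool 2 in TRAP, and in input 1 without KO pool 2 or WT pool 3 and 2 without KO pool 3 or WT pool 2, and the difference between genotypes 0 to 1. Directions turned for values that had not passed: TRAP against input for Chrna4 over both genotypes (-0.20 to 0.03) and in KO for Chrm5 (-0.20 to 0.38), Chrna7 (-0.33 to 0.03) and Chrnb2 (-0.34 to 0.06), KO against WT in TRAP for Chrm5 (-0.12 to 0.92) and Chrnb2 (-0.04 to 0.21) and in input for Chrm4 (-0.02 to 0.30) and Chrna7 (-0.22 to 0.18), and the difference between genotypes for Chrm1 (-0.04 to 0.18), Chrm4 (-0.09 to 0.19) and Chrnb2 (-0.04 to 0.38). Without a filter and without WT pool 1, Chrna5 in input turned to 0.55. Depth limits Chrm2, Chrm3, Chrm5, Chrna5 and Chrna3 most, with 35 reads or fewer per library.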
